A study of Mus musculus with 8 samples.

Results

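The 34 genes described here encode the enzymes that remove superoxide and peroxides in mouse cells, the thioredoxin and glutathione systems that recharge them, and the pair of proteins that sets their transcription. They were chosen by name, as rows of the count table whose Ensembl identifier carries 1 of 34 listed symbols in GENCODE M21, and all 34 were found among 38293 rows. Of these, 33 had enough counts to be tested, as had 13336 genes in all. The RNA came from the left ventricles of 8 male C57BL/6 mice aged 8 weeks and left untreated. There were 4 wild-type (WT) hearts, numbered 1 to 4, and 4 hearts of mice with a knockout (KO) labelled mORF4-NBDY_KO, numbered 5 to 8, each sequenced as 1 library. The labels describe neither the KO allele nor whether WT and KO mice were littermates. The comparison asked how far the loss of Nbdy, whose small protein binds factors that remove the mRNA cap, moves the transcripts of this defence system in heart muscle.

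Superoxide leaks from the mitochondrial respiratory chain, and superoxide dismutases turn it into hydrogen peroxide. Catalase, the glutathione peroxidases and the peroxiredoxins break the peroxide down, the peroxidases with electrons from glutathione and most peroxiredoxins with electrons from thioredoxin. NADPH restores both carriers through glutathione reductase and the thioredoxin reductases. The transcription factor Nrf2, gene Nfe2l2, raises many of these genes when its inhibitor Keap1 is modified by oxidants. Heart muscle is rich in mitochondria, and its peroxide handling leans on the mitochondrial peroxiredoxins and on glutathione.

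Total counts ran from 11101901 to 14699949 per library. Nbdy itself stood at 19.04 to 20.1 CPM (counts scaled to a common library size) in WT and at 9.58 to 10.4 CPM in KO, with a log2 difference of -0.97 ± 0.11 SE (edgeR adjusted p = 0.0060). Each library thus followed its label, with about 0.51 of the WT transcript level left in KO. The ventricular label fitted the markers: the 7 cardiomyocyte genes listed summed to 60652 to 73605 CPM in WT and 64037 to 75082 CPM in KO, while the atrial genes Myl7, Sln and Bmp10 averaged 0.919, 0.160 and 0 CPM in WT. Myl4 of the same list of 5 averaged 5.10 CPM in WT. The list's sum, 264 to 481 CPM in WT and 457 to 713 in KO, was almost all Nppa, the atrial natriuretic peptide gene that stressed ventricle also makes (400.2 ± 96.4 CPM in WT, 601 ± 123 in KO; log2 difference 0.59 ± 0.19 SE, edgeR adjusted p = 0.711). Of 41 tested marker genes, 0 passed the test between genotypes, in the lists of cardiomyocytes, atrium, fibroblasts, endothelium, smooth muscle, macrophages and blood. In whole ventricle, fewer cells of a type and less RNA per cell cannot be told apart.

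A sequence feature divides the peroxidases and reductases. In 5 of the 34 genes, Gpx1, Gpx3, Gpx4, Txnrd1 and Txnrd2, the active site is a selenocysteine, read from an in-frame TGA that would otherwise be a stop codon, while Gpx7 and Gpx8 carry a cysteine codon at the same place. These stretches are shown because a stop upstream of an exon junction is what nonsense-mediated decay acts on, and Nbdy's partners take part in mRNA decay. The letters are the coding strand of the principal GENCODE M21 transcript, with the selenocysteine or cysteine codon in capitals.
Gpx1: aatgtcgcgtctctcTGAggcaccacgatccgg
Gpx3: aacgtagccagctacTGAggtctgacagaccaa
Gpx4: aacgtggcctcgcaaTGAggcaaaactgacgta
Gpx7: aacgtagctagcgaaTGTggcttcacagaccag
Gpx8: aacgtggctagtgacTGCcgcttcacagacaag
Txnrd1: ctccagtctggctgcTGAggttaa
Txnrd2: actgtgactggttgcTGAggctaa

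Counted from the start codon as 1, the TGA was codon 47 of 201 in Gpx1, 73 of 226 in Gpx3 and 73 of 197 in Gpx4. In GRCm38 these codons lie in coding exons on chromosome 9 from 108339451 to 108339453 (Gpx1), on chromosome 11 from 54907256 to 54907258 (Gpx3) and on chromosome 10 from 80054737 to 80054739 (Gpx4), all on the plus strand. The last exon junction followed 105 bases after the TGA in Gpx1, 240 bases after it in Gpx3 and 342 bases after it in Gpx4. In both reductases the TGA was the last codon but 1 (498 of 499 in Txnrd1, 526 of 527 in Txnrd2), and no junction followed it. Thus 3 of the 5 selenoprotein transcripts hold the codon upstream of a junction.

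Members also differ in whether a core of the antioxidant response element, the motif through which Nrf2 acts, lies close to their start. RefSeq promoters (GRCm38.p6, 250 bases before to 50 after the start) were matched for 29 of the 34 genes, leaving Sod3, Prdx6, Gclc, Gsr and Gsta4. The core TGACNNNGC, searched on both strands, occurred in 6 of these 29 genes, or 20.7%, and in 14.0% of 27025 genes with a promoter. Of 8 matched genes among 11 commonly listed as Nrf2 targets it was found in 4 (Srxn1, Gclm, Prdx1 and Txnrd1), and of the other 21 members in 2 (Sod1 and Nfe2l2). The 6 windows are printed along each gene's own strand, with the motif in capitals, so that a motif on the opposite strand reads as its reverse complement.
Nfe2l2: tcagcccaccTGACTCCGCcatgccccgg
Sod1: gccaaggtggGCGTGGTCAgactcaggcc
Prdx1: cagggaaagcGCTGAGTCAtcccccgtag
Txnrd1: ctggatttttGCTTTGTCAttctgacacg
Gclm: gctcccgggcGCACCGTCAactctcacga
Srxn1: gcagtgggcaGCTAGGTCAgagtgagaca

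In GRCm38.p6 the Prdx1 window spans 116685456 to 116685484 on chromosome 4, the Gclm window 122245413 to 122245441 on chromosome 3, and the Txnrd1 window 82859104 to 82859132 on chromosome 10. The motif of Srxn1 lies just after the annotated RefSeq start and the other 5 lie before theirs. For Txnrd1 that start is an internal one, since the gene begins at 82833951 in GENCODE M21. A gene with several promoters was counted as having a motif if any of them held it. The GC box GGGCGG, also searched on both strands and able to share letters with the element, was present in 23 of the 29 genes (79.3%) against 38.2% of all genes. Median GC content was 60% over the 39 member promoters and 52.7% over all 32851. A match is a description of these letters and not a measured binding site. A gene without a match may hold the element outside the window, which was not searched.

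Of the 33 tested members, 0 passed the threshold in edgeR's quasi-likelihood test (adjusted p under 0.05 over 13336 genes), and 0 had an unadjusted p under 0.05. Over all genes tested, 3 passed, or 0.0225%, and 853, or 6.4%, had an unadjusted p under 0.05. DESeq2 and limma-voom also called 0 members. In no member did the 4 KO values all lie on 1 side of the 4 WT values, a separation seen in 4.12% of all genes. The log2 fold changes (KO minus WT) ran from -0.23 for Gpx8 to 0.25 for Sod3. Their median was -0.07 against -0.0032 over all genes, with 23 members below 0 and 10 above. Of all genes tested, 6742 lay below 0 and 6594 above. The scaling to a common library size tends to hold the all-gene median near 0. The members' median was -0.0134 without WT heart 2 and -0.119 without WT heart 3. The smallest adjusted p of any member was 0.784 (Gpx8).

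The intervals of these log2 fold changes were mostly narrow. The median standard error (SE) of a member's log2 fold change was 0.13, against 0.16 over all genes. For all 33 members the 95% confidence interval lay within 2-fold in either direction, and for 31 within 1.5-fold, the exceptions being Sod3 (upper bound 1.52-fold) and Glrx (lower bound 0.657-fold). Over all genes tested, 8253 of 13336 had an interval within 1.5-fold. The plot of fold changes by role shows each interval crossing 0.

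**Figure D1:**
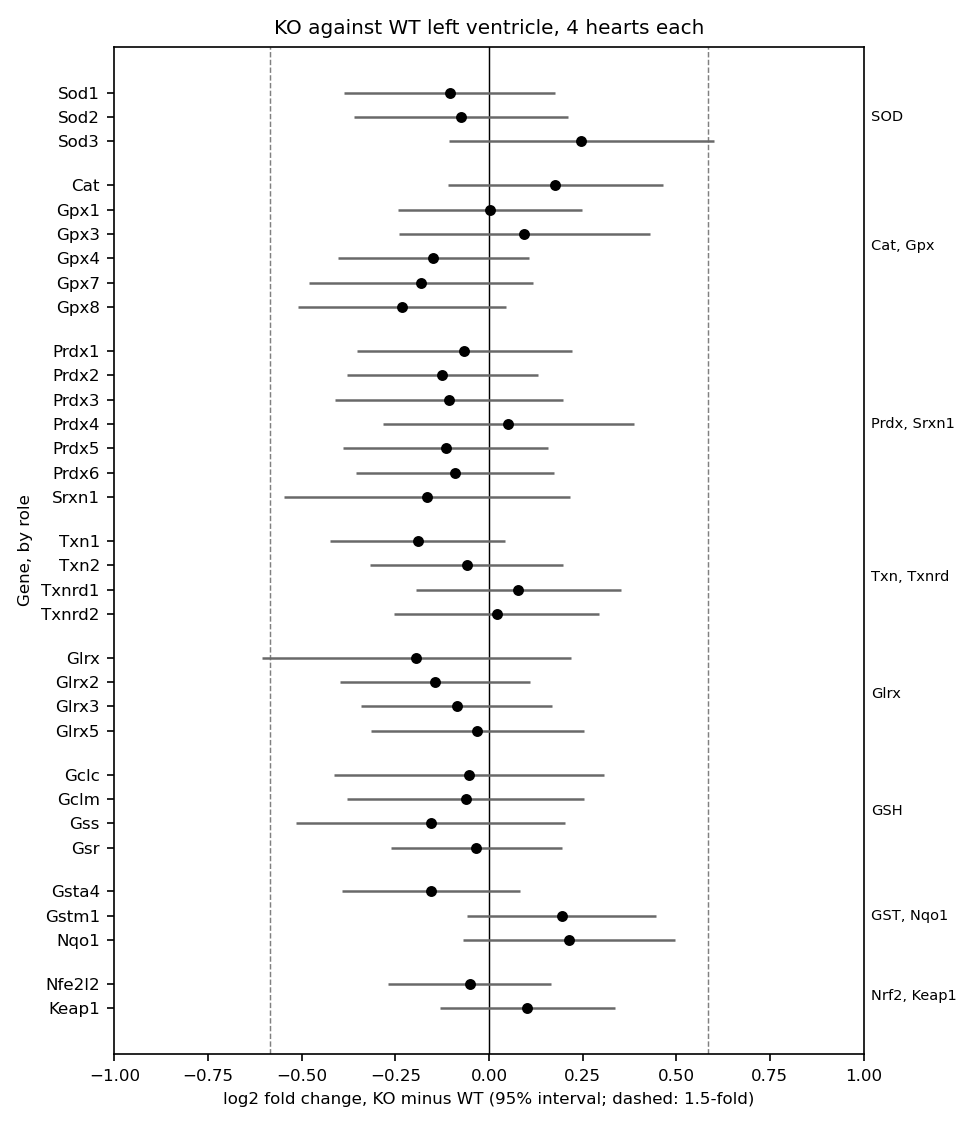
The log2 fold change (KO minus WT, x axis) of the 33 tested members, ordered by role on the y axis, with bars for 95% confidence intervals from the edgeR fit of 4 WT and 4 KO hearts. Every bar crosses 0, and those of Sod3 and Glrx reach past the dashed lines at 1.5-fold.

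Levels differed between members far more than between genotypes. Per kilobase of the principal transcript, the highest WT levels were those of Sod1, the copper-zinc dismutase of the cytosol (617 ± 89.8 CPM per kb, SD, n = 4), Prdx5, a peroxiredoxin found in mitochondria and other compartments (508 ± 76.7), and Gpx4, which reduces lipid peroxides in membranes (495 ± 61.0). Their KO levels were 574 ± 57.7, 469 ± 26.9 and 447 ± 22.0 CPM per kb. On the same scale the lowest tested levels were those of the glutathione synthesis genes Gclm (4.12 ± 0.406 in WT), Gclc (6.03 ± 1.53) and Gss (7.05 ± 1.69). In the order of WT levels, 29 of 32 neighbouring pairs had overlapping ranges. The gaps lay between Gpx4 and Prdx2, between Prdx2 and Gstm1, and between Nfe2l2 and Nqo1. The order depends on the transcript taken for length: over the union of all annotated exons Prdx5, Gpx4 and Gstm1 came first, Sod1 was number 7, and the lowest tested were Glrx2, Glrx and Gss. All members together took 0.407 to 0.505% of the counts in WT and 0.428 to 0.457% in KO.

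**Figure D2:**
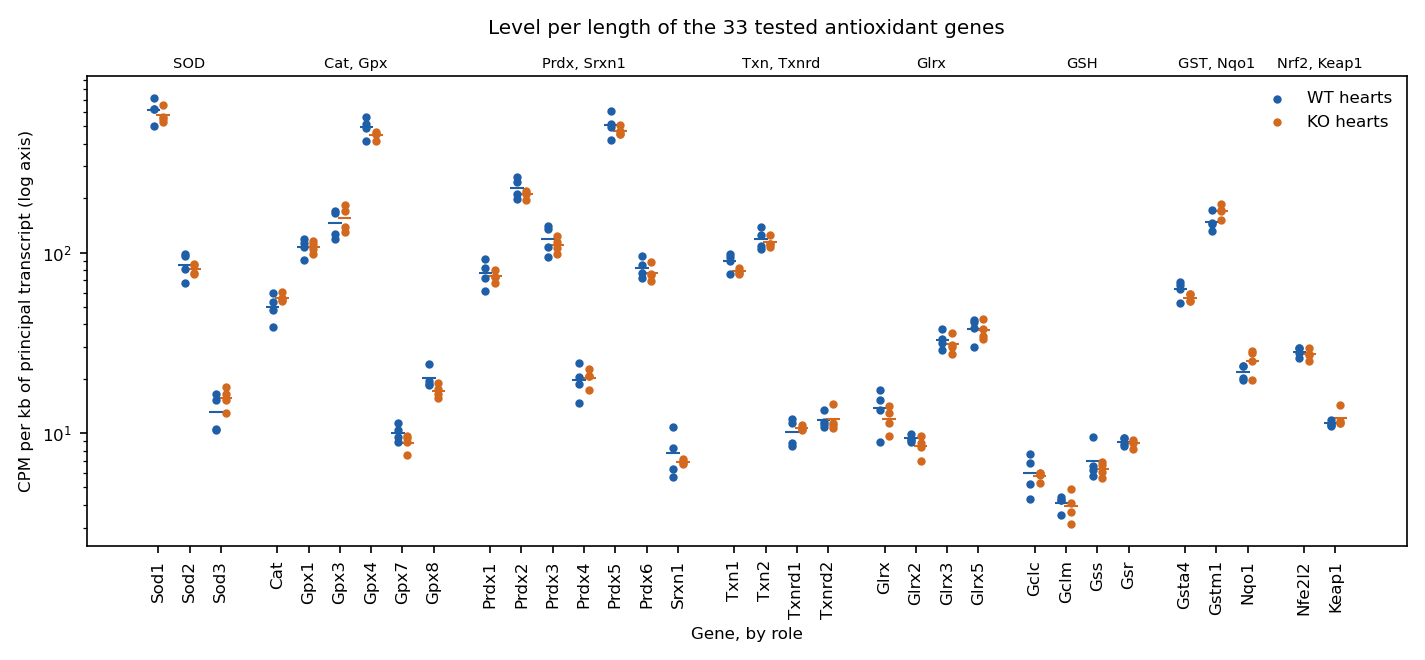
Level of each tested member on a log axis, in CPM per kb of its principal transcript, with 1 point per heart (WT blue, KO orange) and a line at each group's mean. Levels span from about 4 CPM per kb for Gclm to 617 for Sod1, and the groups overlap in every gene.

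Among the superoxide dismutases, the cytosolic and mitochondrial forms lay slightly lower in KO and the secreted form higher, none past the threshold. Sod1 (chromosome 16, 90220754 to 90226329) held 322, 462, 400.2 and 398 CPM in WT hearts 1 to 4 and 422, 338, 359 and 352 CPM in KO hearts 5 to 8. All KO values lay between the lowest and the highest WT heart. Sod2, the manganese enzyme of the mitochondrial matrix, ranged from 397 to 572 CPM in WT and from 444 to 508 in KO (log2 fold change -0.07 ± 0.13 SE). Sod3, the extracellular form bound to the matrix of vessels and heart, held 57.2, 39.5, 38.8 and 61.3 CPM in WT and 56.7, 61.3, 67.5 and 48.2 CPM in KO. Its WT hearts fell into a low pair (2 and 3) and a high pair (1 and 4), and the KO values lay between these pairs (heart 8), near the high pair (hearts 5 and 6) and above it (heart 7). The log2 fold change of Sod3 was 0.25 ± 0.16 (SE; adjusted p = 0.801 in edgeR), the largest positive value of any member.

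Of catalase and the glutathione peroxidases, 3 had values above 0 and 3 below, and 0 of 6 passed. Cat, the peroxisomal catalase, held 138, 126, 101 and 156 CPM in WT and 147, 141, 143 and 158 CPM in KO (log2 fold change 0.18 ± 0.13 SE, adjusted p = 0.818 in edgeR). Only WT heart 4 among the WT libraries reached the KO range. Gpx1, the main peroxidase of cytosol and mitochondria, had nearly equal means of 115.0 ± 13.0 CPM over WT and 115.1 ± 7.96 over KO hearts (SD, n = 4), and the interval of its log2 fold change ran from -0.24 to 0.25. Gpx3, the plasma form, ranged from 188 to 272 CPM in WT and from 206 to 291 in KO.

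Gpx4, whose loss triggers ferroptosis, stood at 470.4, 538, 398 and 493 CPM in WT and 446, 398, 437 and 433 CPM in KO. WT hearts 1, 2 and 4 lay above every KO heart and WT heart 3 at the level of the lowest (log2 fold change -0.15 ± 0.12 SE, adjusted p = 0.827 in edgeR). Gpx8, a peroxidase of the endoplasmic reticulum membrane, had the smallest p of all members. It held 19.2, 25.2, 20.3 and 19.4 CPM in WT and 19.7, 17.2, 16.3 and 18.4 CPM in KO. KO heart 5 lay above 2 of the WT hearts, so the groups overlapped (log2 fold change -0.23 ± 0.13 SE, adjusted p = 0.784 in edgeR). Gpx7, its relative in the lumen of the same compartment, ranged from 11.5 to 14.7 CPM in WT and 9.79 to 12.4 in KO (log2 fold change -0.18 ± 0.14 SE).

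Read against the codons printed above, the selenoprotein genes showed no shift that passed. Of the 5, 4 had values above 0 and 1 below, with a median log2 fold change of 0.02 and a range from -0.15 (Gpx4) to 0.09 (Gpx3). The median took the other sign when library totals set the scale (-0.03) or when a trend in GC content and length was removed (-0.06), and also without KO heart 5 (-0.0341) or WT heart 3 (-0.00416). With 1 library left out it reached at most 0.0705 (without KO heart 8). Of the 3 genes with the TGA upstream of a junction, Gpx1 stood at 0.00, Gpx3 at 0.09 and Gpx4 at -0.15. Another 6 selenoprotein genes among the other redox genes, picked out after their values were seen, had a median of -0.15, and 0 of them passed. Of these 6, 1 lay above 0 (Msrb1, 0.07) and 5 below, with Selenow, Selenoh and Txnrd3 at -0.15, -0.09 and -0.15. The remaining 2, Selenot and Selenok, had the smallest p of the 6. The endoplasmic reticulum gene Selenot averaged 121 ± 18.4 CPM over the 4 WT hearts and 94.9 ± 10.1 over the 4 KO hearts (SD; a log2 difference of -0.35 ± 0.13 SE, edgeR adjusted p = 0.734), and Selenok -0.25 ± 0.11 (SE; adjusted p = 0.772 in edgeR).

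Of the peroxiredoxins and sulfiredoxin, 6 of 7 had a log2 fold change below 0 (median -0.11), and 0 passed. With a trend in GC content and length removed, Prdx1 and Prdx3 stood above 0 (0.05 and 0.0053). Prdx2, the cytosolic form that is also abundant in red cells, had the smallest p of the group, with 318, 422, 341 and 394 CPM in WT and 351, 345, 316 and 341 CPM in KO. WT hearts 2 and 4 lay above all KO hearts, and WT hearts 1 and 3 among them (log2 fold change -0.12 ± 0.12 SE, adjusted p = 0.872 in edgeR). Summed markers of blood were 831 to 1811 CPM in WT and 1165 to 2171 in KO, and their part in the Prdx2 values was not tested. Prdx5 held 529.6, 765, 624 and 648 CPM in WT and 641, 568, 569 and 591 CPM in KO, with WT heart 2 highest and WT heart 1 lowest of the 8. Prdx3, which handles most peroxide in the mitochondrial matrix, ranged from 139 to 206 CPM in WT and from 144 to 183 in KO (-0.11 ± 0.14 SE).

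Prdx1 and Prdx6 had log2 fold changes of -0.07 and -0.09, and their KO hearts all lay inside the WT range, except KO heart 7 for Prdx6, which lay just below it. Prdx4, the form of the secretory pathway and the only member on the X chromosome, had the group's single positive value (0.05 ± 0.15 SE). Srxn1, which repairs overoxidised peroxiredoxins, stood at 17.9, 30.4, 16.01 and 23.2 CPM in WT and 20.3, 19.2, 18.9 and 19.6 CPM in KO. Its KO hearts lay close together and inside the WT range, and WT heart 2 stood highest. Without WT heart 2 the log2 fold change went from -0.16 to 0.03.

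In the thioredoxin system both carriers had values below 0 and both reductases above, and 0 of 4 passed. With library totals as the scale Txnrd2 also had a value below 0 (-0.03). Txn1, the cytosolic thioredoxin, had 79.7, 103, 94.4 and 99.6 CPM in WT and 79.7, 86.6, 83.3 and 80.8 CPM in KO. WT hearts 2, 3 and 4 lay above every KO heart, and WT heart 1 lay level with the lowest of them. Its log2 difference came to -0.19 ± 0.11 SE (edgeR adjusted p = 0.786). Txn2, the mitochondrial thioredoxin, ranged from 215 to 283 CPM in WT and from 221 to 257 in KO. Txnrd1, the cytosolic reductase and a Nrf2 target, was at 40.0, 31.0, 30.0 and 42.0 CPM in WT and at 37.3, 39.3, 36.9 and 37.5 CPM in KO, so that its WT hearts stood on both sides of the KO hearts (0.08 ± 0.13 SE). Txnrd2, the mitochondrial reductase, averaged 33.8 ± 3.32 CPM over WT and 34.2 ± 5.12 over KO hearts (SD, n = 4).

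The glutaredoxins, which reduce protein-glutathione disulfides or carry iron-sulfur clusters, had log2 fold changes from -0.19 to -0.03, and 0 of 4 passed. The sign of Glrx3 turned once a trend in GC content and length was removed (0.0067), and that of Glrx5 with 1 surrogate variable (0.01). Glrx2, of mitochondria and nucleus, held 31.2, 30.7, 32.9 and 29.9 CPM in WT and 32.1, 23.3, 27.9 and 29.5 CPM in KO. KO hearts 6, 7 and 8 lay below all WT hearts and KO heart 5 among them (-0.14 ± 0.12 SE, adjusted p = 0.833 in edgeR). Glrx, the cytosolic form, varied most, from 12.0 to 23.2 CPM in WT and from 13.0 to 19.1 in KO. Glrx5, needed for iron-sulfur cluster assembly, stayed at 111 ± 16.1 CPM over WT and 108 ± 12.5 over KO hearts (SD, n = 4).

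Glutathione synthesis and reduction showed small values on the negative side, and 0 of 4 tested genes passed. With 1 surrogate variable Gclc stood above 0 (0.01). The catalytic subunit Gclc of glutamate-cysteine ligase, the rate-limiting enzyme, held 23.4, 26.4, 17.97 and 14.7 CPM in WT and 20.6, 20.5, 18.2 and 19.95 CPM in KO. The WT hearts spread on both sides of the KO hearts (log2 fold change -0.05 ± 0.17 SE). Its modifier subunit Gclm ranged from 19.7 to 24.8 CPM in WT and from 17.5 to 27.5 in KO. Gss, glutathione synthetase, had the smallest p of the group, with 11.4, 18.7, 12.3 and 12.9 CPM in WT and 13.5, 12.0, 13.0 and 11.0 CPM in KO. Without WT heart 2 its log2 fold change moved from -0.16 to 0.02, so the difference in means rested on that library. Gsr, which recharges glutathione, was among the steadiest members, at 24.0 ± 1.35 CPM over WT and 23.4 ± 1.08 over KO hearts (SD, n = 4).

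Slc7a11, the cystine importer that feeds glutathione synthesis in many cell types, was near the limit of detection. It had 0 counts in each WT heart and 1, 0, 2 and 0 counts in KO hearts 5 to 8. A count of 0 allows up to 0.230 to 0.276 CPM in the WT libraries, counting error only. No fold change was taken, and the gene did not enter the test.

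Of the conjugating enzymes and Nqo1, 2 of 3 had values above 0 and 0 passed. Gstm1, a mu-class glutathione transferase, held 185, 189, 169 and 221 CPM in WT and 219, 196, 238 and 220.2 CPM in KO. WT hearts 1, 2 and 3 lay below every KO heart and WT heart 4 above 3 of them (log2 fold change 0.19 ± 0.12 SE, adjusted p = 0.797 in edgeR). Gstm1 has close relatives beside it on chromosome 3, so reads may be split among copies and its level is uncertain. Nqo1, the quinone reductase often used as a readout of Nrf2, stood at 36.6, 31.3, 30.6 and 36.5 CPM in WT and 44.2, 42.9, 38.8 and 30.7 CPM in KO. KO hearts 5, 6 and 7 lay above all WT hearts and KO heart 8 at the WT minimum (0.21 ± 0.13 SE, adjusted p = 0.797 in edgeR). Gsta4, which clears the lipid peroxidation product 4-hydroxynonenal, ranged from 51.3 to 67.4 CPM in WT and from 52.3 to 57.6 in KO (-0.15 ± 0.11 SE).

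The regulators did not pass either. Nfe2l2 held 68.8, 73.1, 73.7 and 64.3 CPM in WT and 67.9, 61.9, 66.8 and 73.5 CPM in KO. The groups overlapped almost fully (log2 fold change -0.05 ± 0.10 SE, adjusted p = 0.946 in edgeR; 0.01 once a trend in GC content and length was removed). Keap1 held 40.1, 39.6, 40.8 and 42.9 CPM in WT and 51.7, 41.0, 42.0 and 40.9 CPM in KO, with KO heart 5 alone standing apart (0.10 ± 0.11 SE, adjusted p = 0.883 in edgeR; -0.02 once the same trend was removed). Of 10 tested genes commonly listed as Nrf2 targets, 3 had values above 0 and 7 below (median -0.06), and 0 passed. With 1 library left out this median ran from -0.126 (without WT heart 3) to 0.00298 (without WT heart 2), and without KO heart 7 it was -0.00962. Hmox1, heme oxygenase and another Nrf2 target, held 8.27, 10.05, 8.01 and 9.21 CPM in WT and 7.49, 7.38, 8.86 and 9.71 CPM in KO (-0.09 ± 0.16 SE), with the groups overlapping.

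The members' levels also differed from heart to heart within a genotype. In WT hearts 2 and 4, 27 of 33 members lay above their own mean over the 8 libraries, against 11 in WT heart 1, 10 in WT heart 3 and 21, 7, 10 and 14 in KO hearts 5 to 8. WT heart 2 held the highest value of 14 members. The median deviation on the log2 scale was -0.10, 0.16, -0.07 and 0.09 in WT hearts 1 to 4. In KO hearts 5 to 8 it was 0.05, -0.09, -0.08 and -0.0061. The median over all genes tested stayed within 0.011 of 0, where the scaling to a common library size tends to hold it. Summed cardiomyocyte markers were 60652, 73605, 63619 and 71727 CPM in WT hearts 1 to 4 and 68649, 68778, 64037 and 75082 CPM in KO hearts 5 to 8. Summed blood markers were 831, 1811, 1169 and 1719 CPM in WT and 2171, 1165, 1811 and 1585 CPM in KO. In WT both sums were higher in hearts 2 and 4 than in hearts 1 and 3, as the members were. So were the sums of fibroblast markers (1028, 1294, 1056 and 1150 CPM in WT hearts 1 to 4) and macrophage markers (236, 243.5, 183 and 297 CPM). The atrial, endothelial and smooth muscle sums did not show this order. In KO the cardiomyocyte sum did not follow the members, being highest in heart 8 and alike in hearts 5 and 6. The KO blood sum was, as the members were, highest in heart 5 and lowest in heart 6. It was higher in heart 7 than in heart 8, where the members went the other way. The macrophage sum had the same order in KO (305, 200, 284 and 218 CPM in hearts 5 to 8), and the fibroblast sum was lowest in heart 5. The part of any of these sums in the members' levels was not tested. Mitochondrially encoded genes took 29.2% of counts in WT heart 1 and 19.4 to 19.9% in the other WT hearts. In KO hearts 5 to 8 they took 24.3, 23.5, 26.7 and 23.0%, above every WT heart but heart 1. A difference between genotypes in this share was not tested. The spread was wider in WT. The coefficient of variation was larger in WT than in KO for 27 of 33 members (81.8%) and 65.1% of all genes. Its medians in WT and KO were 13.0% and 8.31% over members, and 16.8% and 12.9% over all genes tested. Many members moved together by heart, as counted above, so these 27 are not independent observations.

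**Figure D3:**
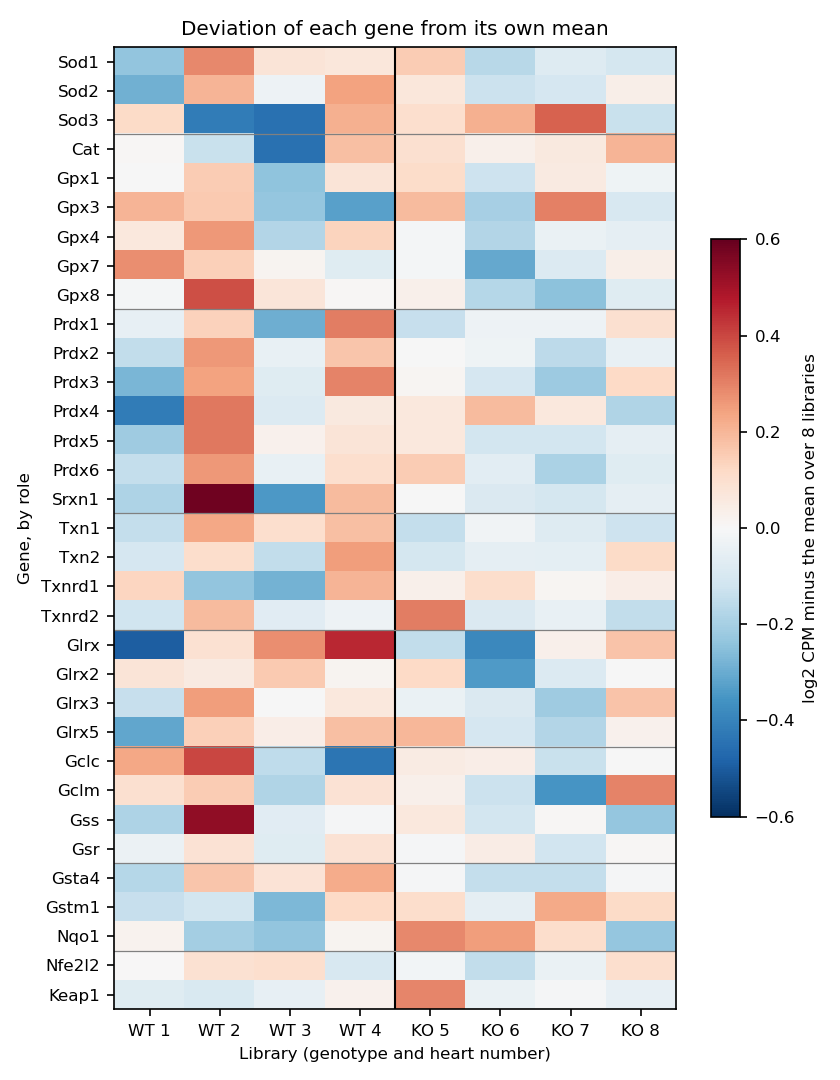
Log2 CPM of each tested member minus its own mean over the 8 libraries, with hearts on the x axis, members by role on the y axis and colour for the deviation (red above, blue below). The columns of WT hearts 2 and 4 are mostly red and that of KO heart 6 mostly blue, with 27, 27 and 7 members above their mean.

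Grouped by compartment, the 7 mitochondrial members (Sod2, Prdx3, Prdx5, Txn2, Txnrd2, Glrx2 and Glrx5) had a median log2 fold change of -0.07, with 6 below 0. With 1 library left out it ran from -0.14 (without WT heart 1) to -0.0084 (without WT heart 4), and without WT hearts 2 or 3 it was -0.0202 or -0.119. The secreted pair Sod3 and Gpx3 had a median of 0.17, which was 0.0875 without WT heart 3 and 0.0876 without KO heart 7. The endoplasmic reticulum genes Gpx7, Gpx8 and Prdx4 had one of -0.18, which was -0.115 without WT heart 1 and -0.117 without KO heart 6. Differences between compartments were not tested.

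Beyond the members, 112 other redox genes were listed and 106 tested. Of the 106, 42 had values above 0 and 64 below (median -0.04), against 6594 and 6742 of all 13336 genes tested. In edgeR 0 of the 106 passed and 10 had an unadjusted p under 0.05, against 853, or 6.4%, of all genes tested. The 3 other redox genes with the smallest p, Chac1, Chac2 and Ggct, belong to the list of other glutathione enzymes, which holds 30 of the 106. No enrichment was tested. Among the 106, all KO values lay above all WT values in 2 genes (Chac1 and G6pdx) and below them in 3 (Chac2, Ggct and Rbx1). Such a separation, in either direction, was seen in 4.12% of all genes tested. Chac1, induced by the integrated stress response, held 2.41, 2.58, 2.78 and 3.46 CPM in WT and 5.81, 6.81, 5.73 and 8.75 CPM in KO. All KO hearts lay above all WT hearts (log2 fold change 1.26 ± 0.22 SE, adjusted p = 0.172 in edgeR), and the gene passed with DESeq2 (adjusted p = 0.0011) and with no filter on low counts (adjusted p = 0.038 in edgeR).

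Chac2, the constitutive relative of Chac1, held 10.5, 9.31, 10.9 and 9.45 CPM in WT and 7.98, 5.89, 5.73 and 7.26 CPM in KO. Here all KO hearts lay below all WT hearts (-0.58 ± 0.16 SE, adjusted p = 0.711 in edgeR). Ggct, gamma-glutamylcyclotransferase, held 19.4, 21.8, 21.2 and 22.2 CPM in WT and 15.4, 17.3, 16.5 and 17.3 CPM in KO, again without overlap (-0.35 ± 0.11 SE, adjusted p = 0.711 in edgeR). Since a small p chose these genes, the separation of their groups adds no support.

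**Figure D4:**
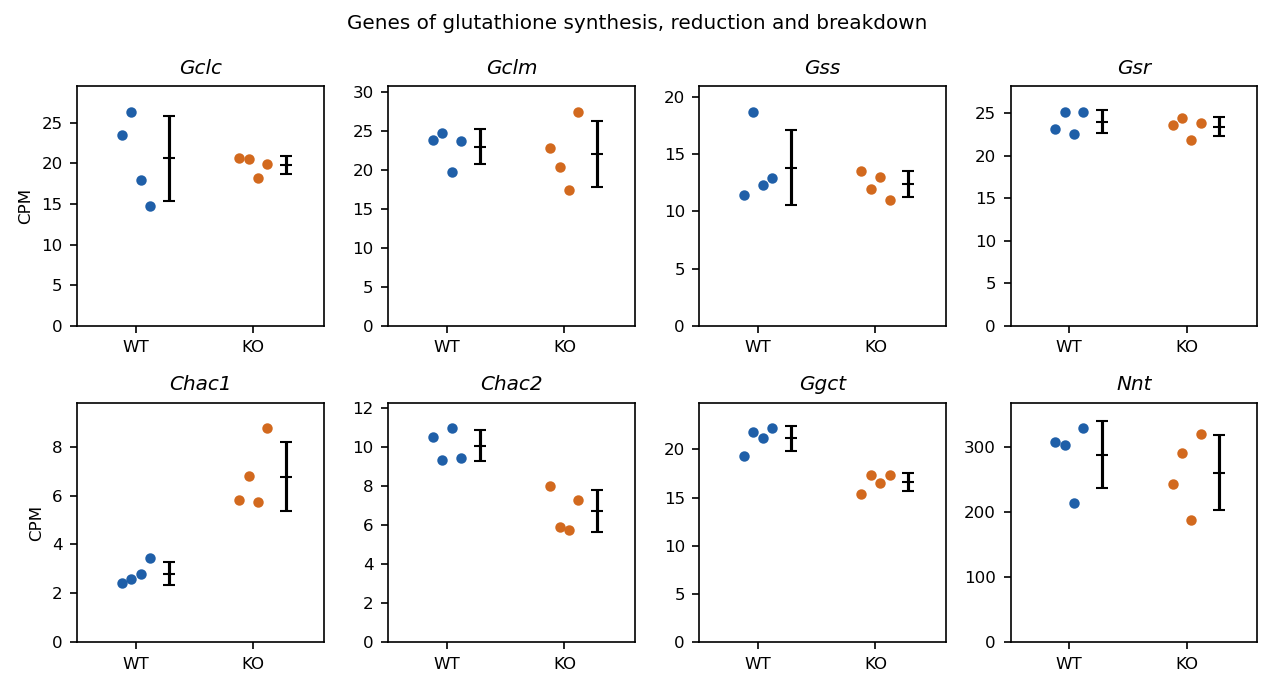
CPM by genotype for genes of glutathione synthesis (Gclc, Gclm, Gss), reduction (Gsr, and Nnt as a source of mitochondrial NADPH) and breakdown (Chac1, Chac2, Ggct), with 1 point per heart and bars for mean ± SD (n = 4). The WT and KO points are apart for Chac1, Chac2 and Ggct and overlap for the other 5 genes.

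NADPH supply showed 7 genes above 0 and 7 below, with 0 passing. Nnt, the mitochondrial transhydrogenase that some C57BL/6 substrains lack in functional form, held 308, 303, 213 and 329 CPM in WT and 244, 290.2, 188 and 320 CPM in KO (-0.15 ± 0.18 SE, adjusted p = 0.898 in edgeR). WT heart 3 stood below the other WT hearts, the KO hearts were spread out, and counts over the whole gene do not show whether the transcript is complete. Txnip, which binds and inhibits thioredoxin, held 437, 615, 584 and 563 CPM in WT and 611, 611, 649 and 852 CPM in KO (0.31 ± 0.15 SE, adjusted p = 0.777 in edgeR), with KO heart 8 highest and WT heart 1 lowest. The thioredoxin-fold and repair genes stood at 5 above 0 and 20 below (median -0.09), the other glutathione enzymes at 14 and 16 (median -0.01), the other genes of the Nrf2 system at 9 and 13 (median -0.04), and the oxidant sources at 7 and 8 (median -0.01).

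Annotated exons of 6 members overlap another gene in the table on the opposite strand. The longest shared stretch relative to the member is that of Prdx5 with Trmt112, 19.1% of its exon bases, where Trmt112 stood at 24.8 CPM in WT. Prdx2 shares 5.67% with Junb and 5.8% with Rnaseh2a, and Gss 6.68% with Acss2. Keap1 and Gclm overlap only genes below 0.1 CPM. How strand was handled in counting is not given in the sources used here, so reads of such pairs may be joined.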

How the data were processed

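Poly(A) RNA of 8 left ventricles was sequenced from stranded TruSeq libraries, per the labels' protocols, and the submitters' processing notes name STAR 2.7.1a and the build GRCm38. The authors deposited 1 table of raw read counts per Ensembl gene, not normalized. For the counter, its strand setting and its annotation the sources used here give nothing. Symbols and lengths came from GENCODE M21 (36345 of 38293 identifiers matched). Counts were filtered (filterByExpr, minimum count 10), scaled by TMM to CPM (counts per library of a common size) and fitted across 13336 genes with edgeR 4.0.16 (R 4.3.3), two-sided, with genotype as the only term and Benjamini-Hochberg adjustment. Intervals are 95% intervals from the fit's SE and degrees of freedom. Pairs of libraries differed by 11.6 to 60.5 in chi-square per degree of freedom, so each counted as 1 sample. Pairs of KO hearts differed by 11.6 to 20.3 and pairs of WT hearts by 21.8 to 60.5. WT heart 1 differed more from the other WT hearts (44.7 to 60.5) than from the KO hearts (13.6 to 26.85). The cause was not tested.

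Members and lists were chosen with earlier results of these data known. Values in every library are given, by rule, for the member with the smallest p in each role, Nfe2l2, Keap1, the 3 highest levels, and Nnt, Hmox1, Txnip, Chac1 and the 3 other redox genes with the smallest p. Further members were added where the groups nearly separated or 1 heart set the mean. Alternatives were other scalings, DESeq2 1.42.0, limma-voom (limma 3.58.1), other filters, 1 surrogate variable (sva 3.50.0), removal of mitochondrially encoded genes, an adjusted p of 0.10 and each library left out. Removal of a trend in GC content and length (4-df splines) was chosen after seeing the data. The edgeR step was run on simulated data with planted 2-fold changes, which are larger than any member's estimate. That run does not show whether changes of the members' size would be found.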

Additional observations from a re-analysis of the deposited data

Results flagged for a closer look

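In KO heart 5 Keap1 stood at 51.7 CPM against 40.9 to 42.0 CPM in the other 3 KO hearts, a gap of 0.898 of the group's range. In KO heart 8 Txnip stood at 852 CPM against 611 to 649 CPM in the other 3, a gap of 0.842. Both exceed Dixon's 95% limit for 4 samples. They are the 2 such values in 78 groups examined, and chance alone flags about 1 in 20 groups.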

How the results depend on the processing

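No member passed under any of 17 alternative fits (smallest adjusted p 0.378, without WT replicate 1) or at an adjusted p of 0.10. The count of members with an unadjusted p under 0.05 in edgeR did change. Without WT replicate 1 it was 3 (Glrx, Gsta4 and Txn1), with 1452 of 13542 genes in all. Without WT replicate 4 it was 2 (Gstm1 and Sod3), with 1028 of 13517 genes. Without KO replicate 8, or with the GC content and length trend removed, it was 1 (Nqo1). The members' median log2 fold change kept its sign, between -0.119 (WT replicate 3 left out) and -0.0134 (WT replicate 2 left out). Over all genes the 3 calls became 11 with DESeq2, 10 with no filter and 5 with 1 surrogate variable, and 2 (without KO replicate 6) to 6 (without WT replicate 4) with 1 library left out, with 5 without WT replicate 1. Among the other redox genes DESeq2 and the fit with no filter each called 1 gene (1 and 1), Chac1. Of the 33 members 13 stayed negative and 5 positive in every fit, and 15 changed sign. With library totals Gpx1 stood at -0.0419 and Txnrd2 at -0.0268. With 1 surrogate variable Glrx5 stood at 0.0146 and Gclc at 0.0125. With the GC content and length trend removed Gpx1 stood at -0.0556, Prdx1 at 0.0489, Prdx3 at 0.00527, Txnrd2 at -0.0596, Glrx3 at 0.00672, Nfe2l2 at 0.0112 and Keap1 at -0.0249. With 1 library left out Gpx1 ran from -0.074 to 0.055, Prdx1 from -0.167 to 0.0289, Prdx4 from -0.0629 to 0.176, Srxn1 from -0.292 to 0.0335, Txn2 from -0.119 to 0.0156, Txnrd1 from -0.000543 to 0.161, Txnrd2 from -0.0907 to 0.0904, Glrx5 from -0.128 to 0.0205, Gclc from -0.191 to 0.0839, Gclm from -0.184 to 0.0332 and Gss from -0.237 to 0.0216. The cause of these changes was not tested. No paired analysis was possible because WT and KO hearts carry different numbers. Slc7a11 had too few counts to test, and among tested members Gpx7 had the fewest.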
